A study of Homo sapiens with 6 samples.

Results

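The end of the short arm of chromosome 5, from 0 to 6 Mb of hg19, carries *TERT* and the Iroquois genes *IRX4*, *IRX2* and *IRX1*. The 7 genes followed here are *NKD2*, *TERT*, *CLPTM1L*, *SLC6A3*, *IRX4*, *IRX2* and *IRX1*, named in the order in which they lie from the telomere inwards. The rule that picks them uses gene names and positions and no threshold on a measured value. They overlap 12 bins of 40 kb among the 150 bins of this window, and all 12 were usable. Of the 150 bins 144 were usable, and of the 75918 bins of chromosomes 1 to 22 and X 65229 were. A bin was usable when its coverage reached 0.25 of the median in all 4 lines. The 6 bins left out lie at 0.68 to 0.84, 1.04 to 1.08 and 1.60 to 1.64 Mb. The SNU-C1 map had 0 read pairs in all 6, that of OE33 in those from 0.68 to 0.76 Mb and that of HCC1954 in those from 0.76 to 0.84 Mb.

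In situ Hi-C, which joins and sequences DNA ends that were neighbours in the nucleus, was measured in 4 established cancer cell lines. SW480 and SNU-C1 come from colorectal adenocarcinoma, HCC1954 from breast adenocarcinoma and OE33 from esophageal adenocarcinoma, and all 4 were grown without a treatment being compared. For SW480 there were separate maps of replicate 1 and replicate 2. Another SW480 map carries no replicate number. In whole read pairs it equalled the sum of the replicates exactly, with no tolerance, at 99.98% of the bin pairs of chromosome 5 and was read as their pool. The other lines, SNU-C1, OE33 and HCC1954, had 1 map per line, so lines were compared without a test. Intervals, in parentheses, are exact 95% Poisson limits from the number of read pairs and cover counting error only.

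*TERT* encodes the catalytic subunit of telomerase, the enzyme that lengthens chromosome ends, and it is silent in most somatic tissues and active again in most cancers. Iroquois genes encode homeobox transcription factors that pattern embryonic tissues, and they lie in clusters amid long stretches without other genes. Chromosomes fold into domains within which contacts are frequent, and a rearrangement joins sequences that are otherwise far apart, so that contacts rise steeply towards the joined ends.

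In hg19 *NKD2*, which encodes an inhibitor of Wnt signalling that binds Dishevelled, lies at chr5:1008917-1039058 on the plus strand. *TERT* lies at chr5:1253262-1295183 and *CLPTM1L*, a transmembrane protein gene next to it, at chr5:1317867-1345214, both on the minus strand. They share the bin from 1.28 to 1.32 Mb, so their values are not independent. *SLC6A3*, the dopamine transporter gene, lies at chr5:1392909-1445555 on the minus strand. Of the Iroquois genes *IRX4* lies at chr5:1877527-1887350, *IRX2* at chr5:2745959-2751791 and *IRX1* at chr5:3595946-3601517, the first pair on the minus strand and *IRX1* on the plus strand. The bins of the 7 genes had a mean GC content of 48.6% at *IRX1* to 61.1% at *NKD2*, against a median of 44.5% over the usable bins of the window. They held 56 MboI sites per bin at *NKD2* and 98 at *IRX1*, against a median of 90.

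Over usable bins the maps held 86175939 read pairs within chromosomes for OE33, 90536078 for HCC1954, 110547075 for SNU-C1 and 126428638 for SW480. With read pairs between chromosomes included, the autosome bins that held any had medians of 3914, 3081, 3728 and 3724 read pairs per bin. In OE33 36.2% of all read pairs joined different chromosomes, in HCC1954 19.4% and in SNU-C1 14.6%. In SW480 the share was 0.256%, so SW480 entered no comparison between chromosomes.

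Coverage, the read pairs of a bin over the autosome median of its map, was high at 6 of the 7 genes in HCC1954 cells and low at *IRX1*. For *TERT* it was 4.18 (4.13 to 4.24) in HCC1954, 1.53 (1.51 to 1.56) in OE33, 0.869 (0.848 to 0.89) in SW480 and 0.635 (0.617 to 0.653) in SNU-C1. The intervals of the 4 lines did not overlap, and the SW480 replicates gave 0.867 and 0.871. At *TERT* HCC1954 thus lay at 4.82 times the median of SW480, SNU-C1 and OE33. That median is the value of SW480, where 0.256% of the read pairs joined different chromosomes, against 19.4% in HCC1954. *CLPTM1L* was higher still in HCC1954 at 4.83, with 1.59 in OE33, 0.923 in SW480 and 0.678 in SNU-C1. *NKD2* had 3.33 in HCC1954, 1.2 in OE33, 0.707 in SW480 and 0.439 in SNU-C1. *SLC6A3* had 3.05 in HCC1954, 1.67 in OE33, 0.935 in SW480 and 0.829 in SNU-C1. At these 4 genes the lines stood in the same order, HCC1954 above OE33, SW480 and SNU-C1.

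Among the Iroquois genes the order of the lines changed from gene to gene. *IRX4*, an Iroquois gene of the heart ventricle, had 1.42 in HCC1954, 1.08 in OE33, 0.581 in SW480 and 0.547 in SNU-C1. *IRX2* had the highest coverage of the 7 genes, 5.43 (5.35 to 5.51) in HCC1954, against 1.21 in SW480, 1.18 in OE33 and 0.939 in SNU-C1. *IRX1* had 0.566 (0.547 to 0.585) in HCC1954, the lowest of the lines, against 0.823 in OE33, 0.955 in SNU-C1 and 1.18 in SW480. *IRX1* was thus the gene at which HCC1954 fell below every other line, at 0.592 times their median, whereas the other 6 genes lay between 2.44 times at *IRX4* and 5.23 times at *CLPTM1L*. In OE33 *NKD2*, *TERT*, *CLPTM1L*, *SLC6A3* and *IRX4* lay at 1.7 to 1.87 times the median of SW480, SNU-C1 and HCC1954, *IRX2* at 0.969 and *IRX1* at 0.862.

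Part of the coverage in HCC1954 came from read pairs with other chromosomes. The ratios to the other lines, at these and at all other genes, count such read pairs. The SW480 map holds almost none, so these ratios do not compare like with like. With read pairs within chromosomes only, coverage in HCC1954 was 2.03 at *TERT*, 2.37 at *CLPTM1L*, 1.89 at *NKD2*, 1.77 at *SLC6A3*, 3.59 at *IRX2* and 0.573 at *IRX1*. *IRX4* then lay at 0.922, below the autosome median. In OE33 the same setting gave 1.29 at *TERT*, and 3 rather than 5 of the genes reached 1.5 times the other lines. Coverage in bulk cells does not tell more copies of a segment apart from more contacts per copy.

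**Figure D1:**
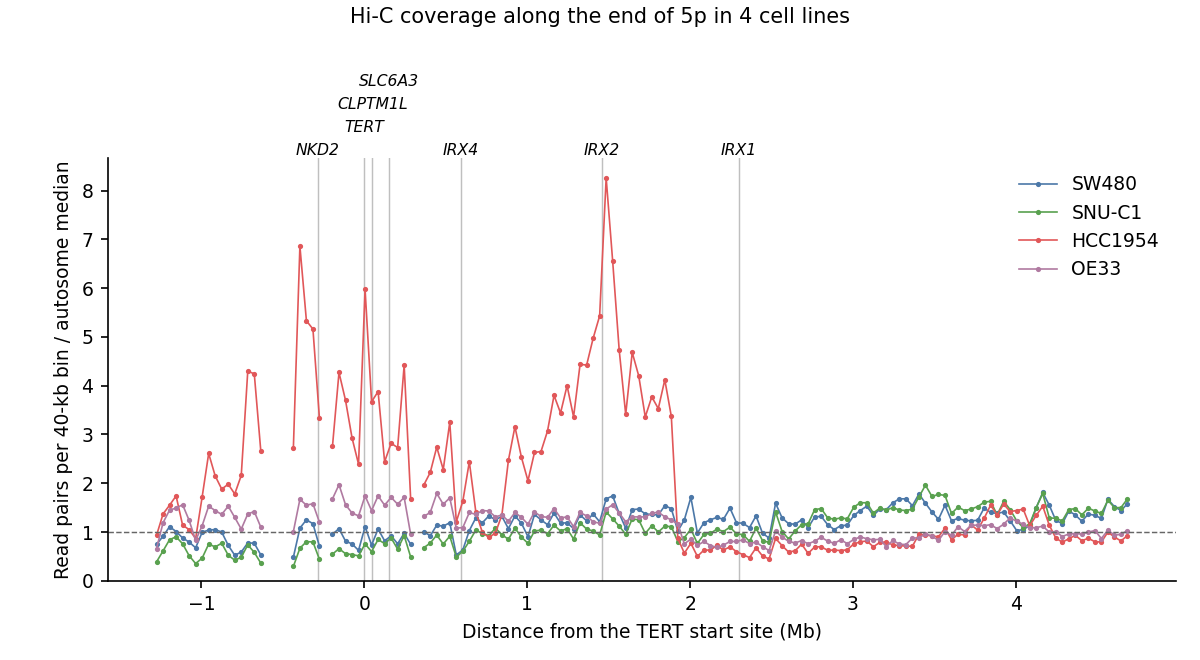
Coverage of each usable 40-kb bin (read pairs over the autosome median of the map) against the distance from the *TERT* start site in Mb, towards the centromere, in the 4 lines, with the start sites of the 7 genes as vertical lines and gaps at unusable bins. HCC1954 lies above the other lines around *NKD2* to *SLC6A3* and around *IRX2*, and falls to 0.566 at *IRX1*.

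The change between *IRX2* and *IRX1* was a step. In HCC1954 the median of 5 bins fell from 3.53 before 3.20 Mb to 0.628 after it, and the bin at 3.16 Mb had 3.37 whereas the bin at 3.20 Mb had 0.869. In OE33 a smaller step lay at 3.28 Mb, from 1.25 to 0.724, and the drop itself ran from 1.16 in the bin at 3.20 Mb to 0.758 in the next. No step of 1.5 times was found there in SW480 or SNU-C1, which had 1.48 and 1.11 at 3.16 Mb and 1.02 and 0.803 at 3.20 Mb. HCC1954 had further steps before it, from 1.14 to 1.98 at 0.28 Mb, from 1.98 to 4.24 at 0.56 Mb, from 5.24 to 2.93 at 1.08 Mb next to *NKD2*, from 3.67 to 2.31 at 1.48 Mb next to *SLC6A3*, from 0.992 to 2.63 at 2.20 Mb and from 2.65 to 4 at 2.48 Mb. Between *IRX4* and *IRX2* the bins at 2.00 to 2.08 Mb thus lay at 0.89 to 0.992, with higher coverage on either side. SW480 and SNU-C1 had 1 step each, at 0.48 and 1.36 Mb, the latter between the bins of *CLPTM1L* and *SLC6A3*.

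The 7 genes did not stand apart from their neighbours. Of the 20 other protein-coding genes before 3.2 Mb, 16 had at least 1.5 times the coverage of the other lines in HCC1954, with a median of 2.84 and a range of 1.3 to 6.36, and 12 in OE33, with a median of 1.61. The 20 include *ZDHHC11B*, which lies in unusable bins, and 3 genes that reach into such bins. Of the 16 genes with usable bins only, a count made after the data were seen, 12 reached 1.5 times in HCC1954, with a median of 2.72, and 11 in OE33. The median of the 20 genes was 0.69 in SW480 and 0.394 in SNU-C1. The 2 other genes beyond 3.2 Mb had 0.874 and 1.18 in HCC1954.

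The other telomerase genes lie elsewhere in the genome, and none of them reached the relative coverage of *TERT* in HCC1954. Relative to the other lines HCC1954 had 0.893 at *TERC*, the RNA template, 0.834 at *DKC1*, 0.841 at *NHP2*, 1.22 at *NOP10* and 1.81 at *GAR1*, the 4 proteins bound to that RNA. It had 0.757 at *WRAP53*, which brings telomerase to Cajal bodies, and 1.13 at *NAF1*, an assembly factor. In OE33 the highest of the 7 was *NHP2* with 1.99, on the long arm of chromosome 5, and *TERC* had 0.776.

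Contacts between the member genes were compared as the observed over the expected contact frequency (O/E), where the expected value is the mean over every bin pair of that map with an equal distance. *TERT* and *SLC6A3*, with start sites 151 kb apart, had an O/E of 1.73 (1.65 to 1.81) in SW480, 1.45 (1.39 to 1.51) in OE33, 1.4 (1.32 to 1.48) in SNU-C1 and 0.567 (0.544 to 0.59) in HCC1954. *CLPTM1L* and *SLC6A3* had 1.66, 1.31, 1.38 and 0.534 in the same lines. *NKD2* and *TERT*, 286 kb apart, had 1.08 in SW480, 0.961 in OE33, 1.1 in SNU-C1 and 0.452 in HCC1954. HCC1954 lay below the others in each of these pairs after correction. Without it HCC1954 had 2.04, 2.08 and 2.13 in the 3 pairs, above SW480 and SNU-C1 in each, and OE33 had 2.23, 2.14 and 1.32.

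After correction the Iroquois genes met more often than the distance gave in SW480, SNU-C1 and OE33. *IRX4* and *IRX2*, 865 kb apart, had an O/E of 1.77 (1.58 to 1.99) in SW480, 1.47 (1.24 to 1.73) in SNU-C1, 1.38 (1.19 to 1.59) in OE33 and 0.623 (0.563 to 0.688) in HCC1954. *IRX4* and *IRX1*, 1709 kb apart, had 1.48, 1.5, 1.55 and 0.662 in these lines. *IRX2* and *IRX1*, 844 kb apart, had 1.51 (1.35 to 1.69) in SW480, 1.4 (1.2 to 1.62) in SNU-C1, 1.51 (1.27 to 1.77) in OE33 and 0.298 (0.234 to 0.375) in HCC1954. The SW480 replicates gave 1.46 and 1.55 for *IRX2* and *IRX1*. Without correction the 3 pairs stayed above 1 in SW480 and OE33, whereas in SNU-C1 *IRX4* and *IRX2* fell to 0.984 and *IRX4* and *IRX1* to 0.896, and in HCC1954 *IRX4* and *IRX2* had 3.11. *IRX2* and *IRX1* remained lowest in HCC1954, at 0.581 against 1.2 to 1.89. With correction *IRX2* and *IRX1* had less in HCC1954 than the other pairs of Iroquois genes. *IRX4* and *IRX1*, which also lie on either side of the step in coverage, then had the highest O/E of the 21 member pairs in that line. Without correction this pair had 0.574 in HCC1954, below *IRX2* and *IRX1*. The pairs with *IRX1* then lay at 0.289 to 0.581 and all other pairs at 1 to 4.98.

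After correction the telomeric genes and the Iroquois genes formed separate groups in SW480, SNU-C1 and OE33, but not in HCC1954. A domain boundary lay at 1.64 Mb, between *SLC6A3* and *IRX4*, in all 6 maps, with a strength of 1.34 in OE33, 1.18 in SNU-C1, 1.02 in SW480 and 0.88 in HCC1954. It lies next to the unusable bin from 1.60 to 1.64 Mb, and the part of that bin in it was not tested. The 12 pairs across 1.64 Mb had a median O/E of 0.772 in SW480, 0.605 in SNU-C1, 0.502 in OE33 and 0.382 in HCC1954, and 0 of them exceeded 1 in any of these 4 maps, although 2 did in SW480 replicate 2. The 6 pairs before 1.64 Mb had medians of 1.31, 1.22, 1.19 and 0.504 in SW480, SNU-C1, OE33 and HCC1954, and the 3 pairs of Iroquois genes 1.51, 1.47, 1.51 and 0.623. After correction a gap lay between these classes in SW480, SNU-C1 and OE33. The highest pair across 1.64 Mb, at 0.947, 0.911 and 0.682, lay below the lowest pair within a group, at 1.03, 1.01 and 0.875. SW480 replicate 2 alone did not keep this gap, with 1.1 across and 0.994 before the boundary, whereas replicate 1 had 0.949 and 1.02. Without correction the gap held in OE33, at 0.985 across against 1.3 within a group, but not in SW480 or SNU-C1. In SW480 *CLPTM1L* and *IRX2*, across, then had 1.02 and *NKD2* and *TERT* 0.809. In SNU-C1 *TERT* and *IRX2* had 0.565 and *NKD2* and *TERT* 0.515. After correction the ranges overlapped in HCC1954, with 0.197 to 0.611 across, 0.452 to 0.581 among the telomeric genes and 0.298 to 0.662 among the Iroquois genes. *TERT* and *IRX2*, 1457 kb apart, had 0.911 (0.638 to 1.26) in SNU-C1, 0.774 in SW480, 0.43 in HCC1954 and 0.376 in OE33, and *TERT* and *IRX1* had 0.352, 0.555, 0.197 and 0.494 in this order. These far pairs rest on 9 to 199 read pairs each.

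Over the 21 pairs of member genes 9 had an O/E above 1 in SW480, 9 in SNU-C1, 7 in OE33 and 0 in HCC1954. This order depends on the iterative correction, which divides by a factor that follows coverage. The correction was made within chromosomes in SW480 and over the whole genome in the other lines. Corrected values of SW480 thus do not compare like with like. Without correction 15 of the 21 pairs lay above 1 in HCC1954, with a median of 2.04 in place of 0.437, against 7 in SW480, 1 in SNU-C1 and 9 in OE33.

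**Figure D2:**
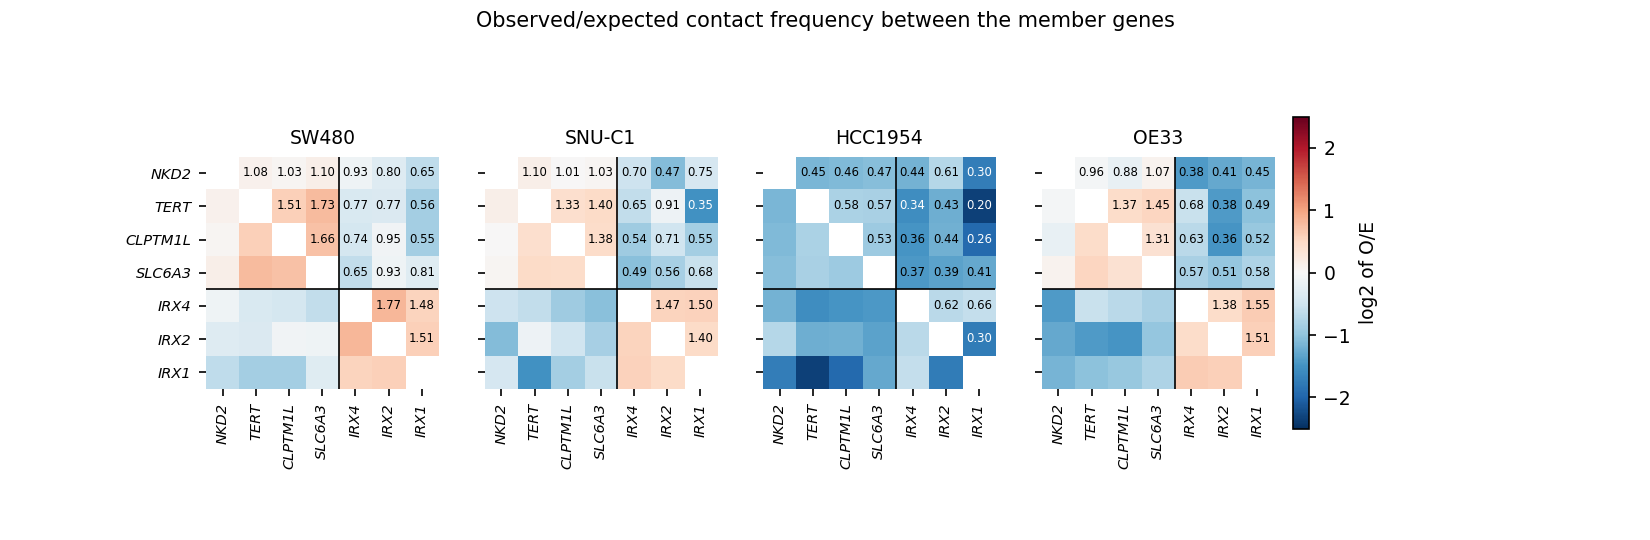
O/E of the 21 pairs of member genes in the 4 lines, as colour on a log2 scale and as values in the upper triangle, with lines between *SLC6A3* and *IRX4*. After correction, pairs across these lines were below 1 in all 4 lines. In HCC1954 all 21 pairs were then between 0.197 and 0.662.

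Insulation, the log2 of the mean contact across a bin within 1 Mb over the chromosome mean, was lower over the telomeric genes in HCC1954 than in the other lines. These are values after iterative correction, made within chromosomes in SW480 and over the whole genome in the other lines. In HCC1954 the median O/E of the member pairs was 0.437 with the correction and 2.04 without it. With the 1-Mb window insulation was higher at *IRX1* than at *TERT* in the 4 lines. A 480-kb window turned that order in SW480 (0.54 at *TERT* and 0.35 at *IRX1*) and in SNU-C1 (0.52 and 0.037). At *TERT* insulation within 1 Mb was -1.08 in HCC1954, -0.37 in OE33, -0.02 in SNU-C1 and 0.02 in SW480. At *IRX2* it was -0.32 in HCC1954 and 0.51, 0.38 and 0.34 in OE33, SNU-C1 and SW480, and at *IRX1* 0.12 in HCC1954 and 0.61, 0.30 and 0.58 in the same lines. Boundaries at 4.84 and 5.44 Mb, beyond *IRX1*, were found in all 6 maps. HCC1954 had a further boundary at 3.20 Mb, between *IRX2* and *IRX1* and at its step in coverage, with a strength of 1.13. OE33 had a weaker one at 3.24 Mb, with a strength of 0.199, next to its step in coverage. SW480 had a boundary of 0.117 at 2.76 Mb, beside *IRX2*, and SNU-C1 one of 0.107 at 3.44 Mb, both close to the minimum of 0.1. With a 480-kb window 10 of the 28 insulation values of the genes changed sign, and boundaries at 1.64, 4.84 and, within 1 bin, 5.44 Mb were found again in all 6 maps, as was that between *IRX2* and *IRX1* in HCC1954, at 3.16 Mb with a strength of 1.71. With this window the other lines too had a boundary between these genes, at 3.24 Mb in OE33 (0.427), at 3.04 and 3.52 Mb in SNU-C1 (0.246 and 0.101) and at 3 Mb in SW480 (0.193).

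**Figure D3:**
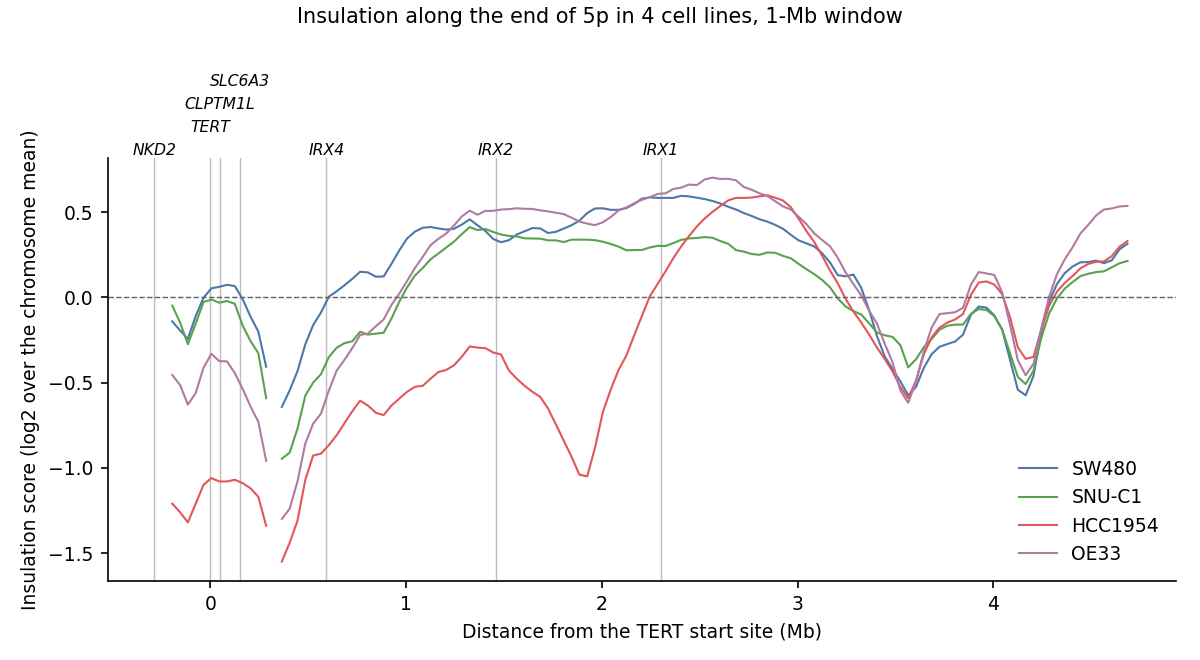
Insulation score with the 1-Mb window (log2 over the chromosome mean) against the distance from the *TERT* start site in Mb, towards the centromere, in the 4 lines, with gaps where the score was not measured. All lines dip between *SLC6A3* and *IRX4*, and HCC1954 has a further minimum of -1.05 between *IRX2* and *IRX1*.

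Compartment scores could not be read at the member genes. The first principal component of chromosome 5 correlated with the number of genes per block at 0.146 to 0.392 over the 4 lines, and 20 of the 28 scores of the genes changed sign when the short arm was taken alone and 10 with 400-kb blocks.

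A contact was called specific to a line by 3 criteria. Its O/E was 4 or more, it had at least 10 read pairs, and with 0.5 added to every O/E it was 4 or more times that of any other line. Within the window 0 of 9748 pairs of positions at least 200 kb apart, summed over 3 by 3 bins, were specific to any line. Over all chromosomes, at 200 kb to 6 Mb, the same rule called 0.00999% of the bin pairs for HCC1954, 0.00911% for SNU-C1, 0.00627% for SW480 and 0.00187% for OE33. At such shares less than 1 call falls among the pairs of the window, so the count of 0 says little about these genes. Without iterative correction 46 pairs were called in HCC1954.

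With the rest of chromosome 5 the window stood out in HCC1954. Of 23490 pairs of 200-kb blocks 257 (1.09%) were specific to HCC1954, against 0.041% of the block pairs of all chromosomes. The counts were 12 (0.0511%) in SNU-C1 against 0.0392%, 1 in SW480 against 0.0102% and 0 in OE33 against 0.0166%. Of the 257, 20 were with the block of *TERT* and *CLPTM1L* out of 810 tested, 20 of 810 with that of *NKD2*, 38 of 1620 with those of *SLC6A3*, 13 of 810 with that of *IRX4*, 23 of 810 with that of *IRX2* and 0 of 1620 with those of *IRX1*. *SLC6A3* spans the block of *TERT* and the next, so its calls include those of *TERT*.

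The partners of these contacts on chromosome 5 were far away, on the long arm. *TERT* had its highest contact beyond 20 Mb in HCC1954 with the bin at 180.56 Mb, which overlaps *OR2V2*, an olfactory receptor gene, with 91 read pairs (73.3 to 112) and an O/E of 342. This contact was made by the bin at 1.28 Mb that *CLPTM1L* shares. In SW480, SNU-C1 and OE33 no bin beyond 20 Mb had more than 3 read pairs with *TERT*. *SLC6A3* had 25 read pairs with the bin at 180.60 Mb, *IRX4* 10 with the same bin and *NKD2* 33 with the bin at 176.36 Mb. *IRX2* had 40 with the bin at 115.80 Mb, an O/E of 400. *IRX1* had at most 3 with any bin in HCC1954, as in OE33, and at most 4 in SW480 and SNU-C1.

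After called blocks that touch were joined, the contacts of *TERT* with the end of the long arm formed a group of 86 block pairs, from 0.8 to 3.2 Mb against 179.2 to 180.8 Mb, and its strongest block pair, 1.2 to 1.4 Mb with 180.4 to 180.6 Mb, had 568 read pairs and an O/E of 222 (204 to 241). The same block pair had 2 read pairs in SW480, 0 in SNU-C1 and 7 in OE33. Another group joined 1.2 to 1.4 Mb with 176.2 to 176.4 Mb, with 490 read pairs and an O/E of 207. The group with the highest O/E, 226 over 420 read pairs, joined 2.6 to 2.8 Mb, the block of *IRX2*, with 115.6 to 115.8 Mb, where *COMMD10* lies. Coverage in HCC1954 was 5.25 at the bin at 180.56 Mb and 6.04 at that at 176.32 Mb, against at most 1.42 in the other lines. At the bin at 115.68 Mb it was 1.43, against 0.714 to 1.29 in the others.

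Outside HCC1954 few contacts with the rest of chromosome 5 were called. The strongest group of SNU-C1 joined 4.0 to 4.8 Mb, beyond *IRX1*, with 19.2 to 20 Mb around *CDH18*, a cadherin gene, with 301 read pairs and an O/E of 21.7 in its strongest block pair. The call of SW480 lay in the block of *NKD2*, with 10 read pairs, the minimum for a call. It was not made in either replicate map, but a replicate could make it only with all 10, so the replicates do not test it.

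Averaged over all of chromosome 5 outside the window, and after iterative correction, 6 of the 7 members had a higher O/E in another line than in HCC1954. For *TERT* it was 0.737 (0.707 to 0.767) in HCC1954, 0.718 in OE33, 0.774 in SW480 and 0.852 in SNU-C1. *IRX1* alone had its highest value in HCC1954, at 1.37 (1.27 to 1.47), against 1.21 in SNU-C1, 1.19 in OE33 and 0.897 in SW480. This order rests on the correction for most members. At *IRX4* the uncorrected counts also put HCC1954 below OE33, with 652 against 894 read pairs. The OE33 map held fewer read pairs within chromosomes than that of HCC1954. SW480 and SNU-C1 had 700 and 739 at *IRX4* from larger maps, so these counts do not rank HCC1954 against them. Without correction there were 2303 read pairs at *TERT* in HCC1954 against 679 to 1071 in the other lines and 749 at *IRX1* against 1088 to 1522. Of the 2303 at *TERT*, 2026 lay beyond 20 Mb. In SW480 525 of 1027 did, in SNU-C1 306 of 679 and in OE33 683 of 1071. For the block pairs of the whole window with the rest of chromosome 5 the mean O/E was highest in HCC1954. It was 1.19 there and 0.76 to 0.837 in the other lines.

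Contacts with other chromosomes took up much of the read pairs of 6 members in HCC1954. The share was 60.6% at *TERT*, 60% at *CLPTM1L*, 53.8% at *NKD2*, 52.9% at *SLC6A3*, 47.1% at *IRX4* and 46.1% at *IRX2*. It was 17.7% at *IRX1*, close to the median of 17.6% over all usable bins, of which 5% lay above 31.7%. In OE33 the share was 45.9% at *TERT* and 28.1% at *IRX1*, with a median of 34.1% over all bins, and in SNU-C1 28.5% and 16.4%, with a median of 14.1%. The share at *TERT* thus exceeded that at *IRX1* in each of the 3 lines, and in SNU-C1 too it lay above the share that 5% of all bins exceeded, 22.8%, but not in OE33, where that share was 50%.

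Of 356758 block pairs of the window with other chromosomes 2252 (0.631%) were specific to HCC1954, against 0.0481% of all block pairs of different chromosomes. For OE33 the count was 539 (0.151%) against 0.0209%, and for SNU-C1 19 (0.00533%) against 0.0242%. HCC1954 and OE33 thus lay above their background at this end of chromosome 5 and SNU-C1 below it. These counts rest on the minimum of 10 read pairs, since without it SNU-C1 had 25453 calls and OE33 9016, which turned the order of the 2 lines. In HCC1954 the block of *TERT* and *CLPTM1L* had 228 calls, the blocks of *SLC6A3*, which include that of *TERT*, 376, that of *IRX2* 274, that of *NKD2* 169 and that of *IRX4* 89. In OE33 the counts were 20 for *TERT* and *CLPTM1L*, 54 for *SLC6A3*, 48 for *IRX2*, 15 for *NKD2* and 44 for *IRX4*. *IRX1* had 0 calls in HCC1954 and in OE33 and 2 in SNU-C1. These counts do not rank the genes, since *SLC6A3* and *IRX1* span more blocks than the others and shares per gene were not worked out.

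The calls were gathered on few chromosomes. In HCC1954 1384 of the 2252 were with chromosome 8, followed by 232 with chromosome 4, 143 with chromosome 9, 140 with chromosome 11 and 127 with chromosome 21. In OE33 532 of the 539 were with chromosome 7, and in SNU-C1 17 of the 19 with chromosome 11. Chromosome 8 held 45.9% of the read pairs between the window and other chromosomes in HCC1954, against 12.7% for the rest of chromosome 5. It held 44.1% at *CLPTM1L*, 45.2% at *TERT*, 45.6% at *SLC6A3*, 48% at *IRX4*, 48.8% at *NKD2* and 50.5% at *IRX2*, and 8.18% at *IRX1*.

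The members differed in where on chromosome 8 they met it. For each of the 6 genes other than *IRX1*, the bin of another chromosome with the most read pairs in HCC1954 was taken. All lay on chromosome 8 and gave 5 places, at 107.24, 111.64, 112.60, 119.76 and 129.16 Mb. *IRX1*, which had at most 2 read pairs with any such bin, gave no place. The places were chosen by the contacts of the 6 genes, so the levels are a description and *IRX1* was read at places that the other members set. None of the 5 bins overlaps a protein-coding gene, and the nearest are *OXR1* at 2 kb, *KCNV1* at 652 kb, *CSMD3* at 595 kb, *SAMD12* at 126 kb and *MYC*, the oncogene, at 405 kb. Values below are over the place and its neighbouring bin on either side.

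*TERT* met chiefly the place near *MYC*. It had 607 read pairs with it, an O/E of 1357 (1251 to 1470), and 264 with the place near *CSMD3*, an O/E of 788. Its O/E was 442 at the place near *KCNV1*, 96.8 at that near *SAMD12* and 92.2 at that near *OXR1*. In SNU-C1 and OE33 *TERT* had 0 read pairs with each of them, which allows an O/E of up to 70.6 in SNU-C1 and up to 19 in OE33.

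The contact of *TERT* with the place near *MYC* had a steep edge on the side of *SLC6A3* and reached further on that of *NKD2*. Along the window, the 3 bins of the place had 136 read pairs with the bin at 1.16 Mb, 182 at 1.20 Mb, 118 at 1.24 Mb and 489 at 1.28 Mb, then 76 at 1.32 Mb, 16 at 1.36 Mb and 5 at 1.40 Mb. The bin at 1.28 Mb holds the start site of *TERT*, at 1.295 Mb, and part of *CLPTM1L*, and with the bin at 129.16 Mb alone it had 340 read pairs (305 to 378), the most of any member bin with any bin of another chromosome in the 3 lines. Contacts thus fell off sharply on the side of *SLC6A3* and more slowly on the side of *NKD2*. A further rise lay around *IRX2*, with 172 read pairs at 2.76 Mb.

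*CLPTM1L* shared this pattern through the bin it has in common with *TERT*, with an O/E of 1061 at the place near *MYC*. *SLC6A3*, 1 bin further on, did not. It had an O/E of 44.9 (28.2 to 68) at the place near *MYC* and 874 (791 to 964) at that near *CSMD3*, where its bin at 1.36 Mb had 146 read pairs with the bin at 112.60 Mb. *NKD2* had 696 near *CSMD3*, 642 near *KCNV1* and 438 near *MYC*, and at most 88.3 at the other places.

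*IRX4* and *IRX2* met other places. *IRX4* had an O/E of 951 (796 to 1129) at the place near *OXR1*, 529 near *SAMD12*, 292 near *KCNV1*, 284 near *CSMD3* and 40 near *MYC*. *IRX2* had 652 (538 to 783) near *SAMD12*, 421 near *MYC*, 163 near *OXR1*, 117 near *KCNV1* and 115 near *CSMD3*. A bin outside the 5 places, at 130.88 Mb, met *IRX2* about as often. As single bins it had 58 read pairs (44 to 75) and an O/E of 1238, and the bin at 119.76 Mb 61 (46.7 to 78.4) and 964. *IRX1* had 0 read pairs with each of the 5 places in HCC1954, which allows an O/E of up to 29.5 to 44.3. That limit lies below the value of every other member at each place, although the intervals of *NKD2* near *SAMD12* and of *SLC6A3* and *IRX4* near *MYC* reach under it.

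All 5 places lost their contacts within 1 bin of 3.20 Mb. Between 97.6% and 99.9% of the read pairs of each place with the window fell before 3.2 Mb, and the place near *SAMD12* had its most, 475, at 3.16 Mb. The place near *MYC* had 2666 read pairs before 3.2 Mb and 2 after it. Coverage of the 5 bins in HCC1954 was 4.61 to 7.99. In the other lines it was between 0.806 and 2.22, apart from 8.06 at 129.16 Mb in SW480, whose contacts with other chromosomes were not compared.

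**Figure D4:**
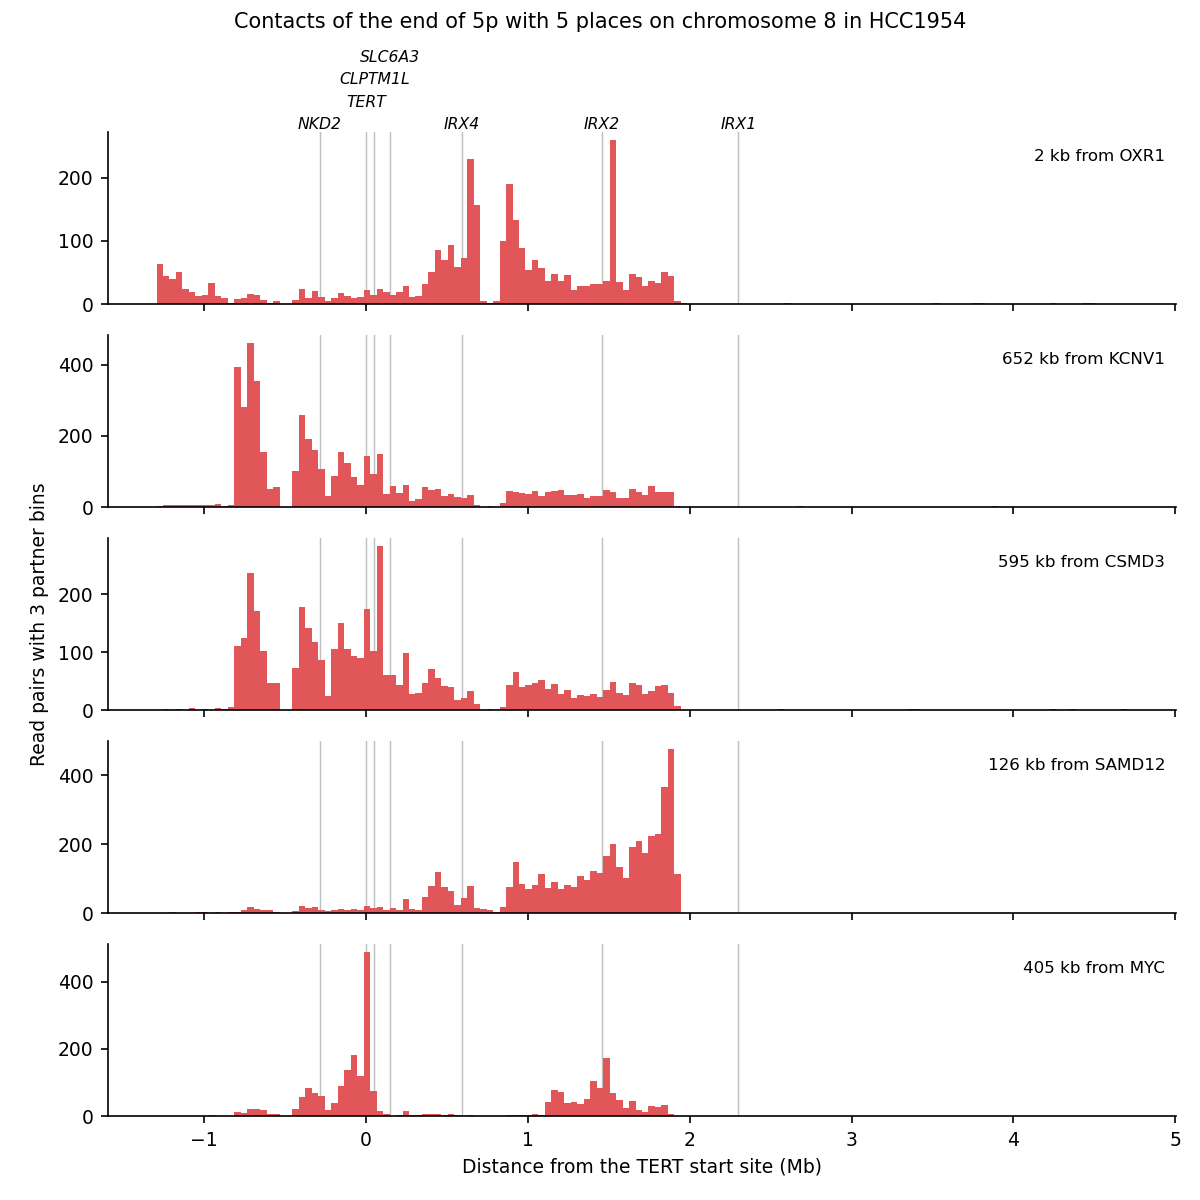
Read pairs in HCC1954 of each 40-kb bin at the end of chromosome 5 with 5 places on chromosome 8, each of 3 bins, against the distance from the *TERT* start site in Mb, with the start sites of the 7 genes as vertical lines. The place 405 kb from *MYC* peaks at *TERT*, with 489 read pairs, that 126 kb from *SAMD12* between *IRX2* and *IRX1*, and all 5 are close to 0 from *IRX1* onwards. The read pairs are not corrected for the coverage of the bins.

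*MYC* itself met *IRX2* more than *TERT*. In HCC1954 the bins around *MYC* had 188 read pairs with *IRX2*, an O/E of 351 (302 to 405), and 34 with *TERT*, an O/E of 71.3 (49.4 to 99.7). *NKD2* had an O/E of 67.3, *CLPTM1L* 52.7, *SLC6A3* 37.6 and *IRX4* 13.7 (3.72 to 35), and *IRX1* had 0 read pairs, which allows up to 22.8. In SNU-C1 and OE33 each of the 7 genes had at most 1 read pair with *MYC*. With *APC*, the tumor suppressor gene on the long arm of chromosome 5, *IRX2* had 44 read pairs in HCC1954, an O/E of 13.3, and *TERT* 22, an O/E of 8.38 (5.25 to 12.7). *CLPTM1L* had an O/E of 8.24 with *APC*, *NKD2* 7.11, *SLC6A3* 4.98 and *IRX4* 3.05, and *IRX1* had 0 read pairs. The other 3 lines had at most 5 read pairs for any member with *APC*.

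In OE33 the partner was chromosome 7. The block pair with the highest O/E joined 3.0 to 3.2 Mb, between *IRX2* and *IRX1*, with 115.0 to 115.2 Mb of chromosome 7, with 389 read pairs and an O/E of 226 (204 to 249), against 1 read pair in SNU-C1 and 0 in HCC1954. Its joined group covered 419 block pairs, from 0.8 to 3.4 Mb against 109.4 to 120.2 Mb. The 10.8 Mb of chromosome 7 that this group spans were then taken for all members. The region was chosen by its contacts with the window, so the levels in OE33 are a description.

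From *NKD2* to *IRX2* the O/E with this region rose along the chromosome. It was 6.43 (5.26 to 7.77) at *NKD2*, 8.97 (8.09 to 9.91) at *TERT*, 9.61 at *CLPTM1L*, 9.84 (9.11 to 10.6) at *SLC6A3*, 17.7 (16.2 to 19.3) at *IRX4* and 29.4 (26.7 to 32.2) at *IRX2*. At *IRX1* it was 1.14 (0.761 to 1.63), from 29 read pairs. The intervals of *TERT*, *CLPTM1L* and *SLC6A3* overlapped, whereas those of *NKD2*, *IRX4*, *IRX2* and *IRX1* each lay apart from the rest. In HCC1954 the members had between 0 and 2.29 and in SNU-C1 between 0.377 and 1.56, from at most 29 read pairs each.

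Within the region the telomeric genes and *IRX2* had different best partners. *TERT* had its most read pairs, 9, with the bin at 116.48 Mb, which overlaps *CAPZA2*, and *NKD2* 5 with the bin at 116.40 Mb, which overlaps the receptor tyrosine kinase gene *MET*. *IRX4* had 8 with the bin at 115.72 Mb, at *TFEC*, and *IRX2* 11 with the bin at 115.16 Mb, 375 kb from *TFEC*. These counts are small and their intervals overlap. Mean coverage of the region was 4.79 in OE33 and 1.34 to 1.41 in the other lines. In OE33 the region had an O/E of 16.6 with 0 to 3.2 Mb of chromosome 5, 1.8 with 3.2 to 6 Mb, 1.39 with the rest of the short arm and 1.54 with all other chromosomes.

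Chromosome 7 held 37.4% of the read pairs of *IRX2* with other chromosomes in OE33, 25.7% of those of *IRX4*, 18.9% of those of *SLC6A3*, 17.9% of those of *CLPTM1L*, 17% of those of *TERT*, 16.4% of those of *NKD2* and 9.14% of those of *IRX1*. The rest of chromosome 5 had 9.17%, so *IRX1* alone lay at the level of its chromosome.

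**Figure D5:**
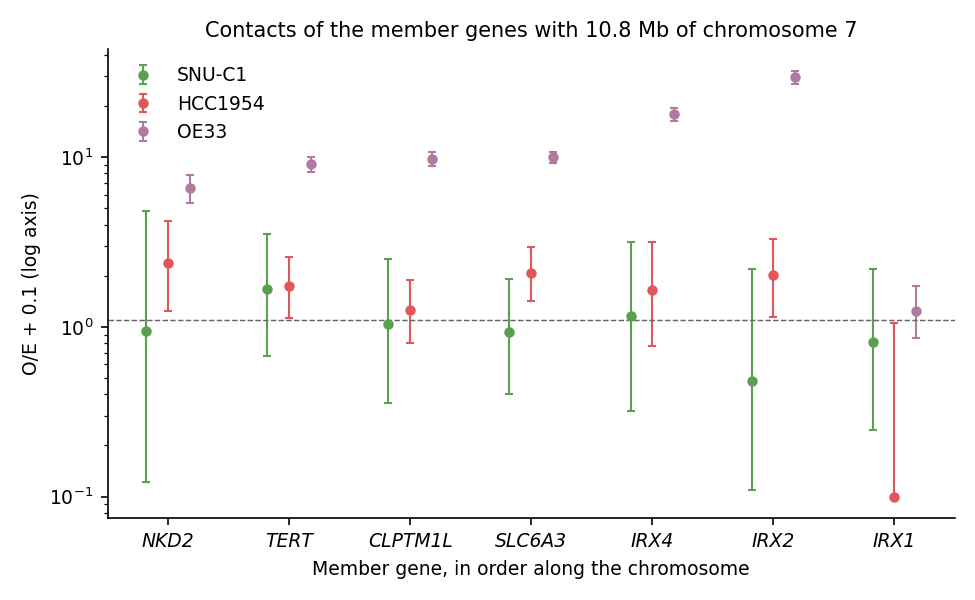
O/E of the 7 genes with 10.8 Mb of chromosome 7 in SNU-C1, HCC1954 and OE33, plotted as O/E + 0.1 on a log axis, with exact 95% Poisson intervals and, for the count of 0, a bar to the limit that 3 read pairs would give. OE33 rises from 6.43 at *NKD2* to 29.4 at *IRX2* and lies at 1.14 at *IRX1*, and the dashed line marks an O/E of 1.

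In SNU-C1 most called contacts were with places on chromosome 11 that had high contact with the other chromosomes too. The 17 calls with chromosome 11 fell on 23.6 to 24.0 and 35.0 to 35.4 Mb, which had coverages of 17.5 and 36.1 in SNU-C1 and at most 1.76 in the other lines. Their O/E with the window was 4.27 and 6.38, and with all chromosomes other than 5 and 11 it was 4.61 and 6.06. The other 2 calls joined 0 to 0.2 Mb, before *NKD2*, with the ends of chromosomes 13 and 20. These had 22 and 11 read pairs and O/E values of 167 and 92 in SNU-C1, with 14.3 to 22.9 in HCC1954 and OE33.

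The Iroquois cluster of chromosome 5 was also compared with its paralogue on chromosome 16, which holds *IRX3*, *IRX5* and *IRX6*. From *IRX4* to *IRX1* against *IRX3* to *IRX6* the O/E was 3.53 (2.38 to 5.04, 30 read pairs) in SNU-C1, 1.88 (1.43 to 2.42, 60 read pairs) in OE33 and 1.45 (1 to 2.02, 34 read pairs) in HCC1954. The same stretch of chromosome 5 had 1.81, 1.34 and 1.97 with all of chromosome 16 in these lines. The whole window from 0 to 6 Mb had 2.18 (1.67 to 2.79), 1.4 (1.18 to 1.65) and 1.67 (1.36 to 2.02) with *IRX3* to *IRX6*. The pair of clusters thus lay above all of chromosome 16 in SNU-C1 and OE33, but its interval overlapped that of the whole window with *IRX3* to *IRX6* in all 3 lines.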

How the data were processed

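The authors used MboI to cut chromatin, BWA-MEM to map reads on hg19, Picard against PCR duplicates and iterative correction to normalize the matrices. Per the methods the experiments were run in duplicate. Whether the single maps of OE33, SNU-C1 and HCC1954 pool such duplicates, and which versions and read filters applied, was not found in the sources used here. The deposited values are a signal, a contact frequency per pair of 40-kb bins after that correction. SW480 was corrected within chromosomes and the other 3 lines over the whole genome. Bin factors were fitted to the values in 45 iterations, using bin pairs 5 Mb or more apart or on different chromosomes. The products came out as whole numbers of read pairs, with a tolerance of 0.02, in 100% of the tested values, those up to 20.5 read pairs. No molecular identifiers were used, so intervals and the limit of 3 read pairs behind a count of 0 cover counting error only.

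The expected value was the mean at each distance over all chromosomes, smoothed over 10% of the distance beyond 5 Mb, and between chromosomes the mean of all usable bin pairs. Blocks of 200 kb needed 3 of 5 usable bins. Member pairs were summed over the bins of each gene with 1 bin on either side, without bin pairs under 80 kb apart. Boundaries were insulation minima with a 1-Mb window, a 200-kb delta and a minimum strength of 0.1. GENCODE, lifted to GRCh37, gave the gene positions.

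The genes, lists and comparisons were chosen with earlier results of these data known. Named are the 7 genes, the telomerase genes, *IRX3*, *IRX5* and *IRX6*, *MYC* and *APC*, the partners with the highest O/E among 5 joined groups per line and class of contact, and counts over the other genes of the window. Partner bins of single genes, the steps and the region of chromosome 7 were not part of this rule and were picked with their values in view. The recovery of read pairs and the calls of block pairs were tested on simulated maps. Steps in coverage, insulation, contacts of member pairs and calls within the window were not. Alternatives were other sums and block sizes, another expected value, no correction, other filters and thresholds, and the replicate maps of SW480. The tools were Matplotlib 3.10.9, Numba 0.67.0, PyArrow 21.0.0, pandas 2.3.3, SciPy 1.17.1 and NumPy 2.4.6 in Python 3.11.15.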

Additional observations from a re-analysis of the deposited data

How the results depend on the processing

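No paired analysis was possible because each of OE33, SNU-C1 and HCC1954 has a single map. Within the window, where 0 pairs were called, single bins gave 4 calls in SW480 and 1 in OE33, and read pairs without correction 46 in HCC1954. With the rest of chromosome 5, where SW480, SNU-C1, HCC1954 and OE33 had 1, 12, 257 and 0 calls, 400-kb blocks, which are fewer, gave 0, 4 and 81 in the first 3 lines. The expected value of chromosome 5 alone gave 4 in SW480 and 150 in HCC1954. Without correction SW480 had 0, SNU-C1 19 and OE33 2, and an added constant of 1 gave 7 in SNU-C1. Thresholds of 3 gave 5 in SW480, 30 in SNU-C1 and 3 in OE33, and no minimum of read pairs 9, 48 and 25. With a replicate in place of the pool, SW480 had 0 calls with either and OE33 0 to 1. With other chromosomes, 400-kb blocks gave 190 in OE33, and 40-kb bins 4892 in HCC1954, 120 in OE33 and 0 in SNU-C1. Without correction SNU-C1 had 48. With no minimum of read pairs the counts were 9016 in OE33, 29296 in HCC1954 and 25453 in SNU-C1, so they rest on the minimum of 10 read pairs, and so does the order of the lines with OE33 above SNU-C1. Members with at least 1.5 times the coverage of the other lines numbered 1 rather than 0 in SW480 with medians over 1 Mb, and 3 rather than 5 in OE33 within chromosomes. Member pairs with an O/E above 1 numbered 1 rather than 9 in SNU-C1 and 15 rather than 0 in HCC1954 without correction. The causes of these shifts were not tested unless stated. Another 101 comparisons of such counts with their alternatives stayed within 1.5 times. Among other values, such as coverage at single genes, 257 comparisons moved beyond their limit and 286 did not. For coverage that limit was the counting interval or, in SW480, the spread of the replicates.

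Limits are the 1 map in 3 of the 4 lines, 40-kb bins, which do not place an end within *TERT* or separate it from *CLPTM1L*, and counts under 10 read pairs for most single bin pairs. More copies, contacts per copy and sequences joined to the window cannot be told apart from read pairs alone. Break-ends called from sequencing were not used here.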
